A study of Mus musculus with 2 samples.

Results

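CTCF peaks whose midpoint lay in protein-coding sequence were described in mouse embryonic stem cells. CTCF is a zinc-finger protein that binds DNA at insulators and at the anchors of chromatin loops, and ChIP-seq maps it by sequencing the DNA recovered with an antibody against it. The cells were E14TG2a.4, a male embryonic stem cell line of 129/Ola strain origin. There was 1 group of 2 libraries, labelled biological replicates 1 and 2, with no second treatment, genotype or time. A single line with this design gives no test between conditions, and the spread between the 2 libraries measures only how these 2 differ. Of 38519 autosomal peaks in the pooled list on the mm9 build, 673 were members. They are the peaks with the midpoint in a coding interval of a protein-coding gene and more than 1000 bp from every start of a protein-coding transcript (GENCODE vM1).

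Most CTCF sites lie in introns and between genes, where the motif is free of a second function. Inside a coding exon the same bases also spell codons, so a motif there must fit one of the reading frames on one of the strands. CTCF in exons is also known from splicing: in human B-cell lines, CTCF bound at exon 5 of the CD45 gene PTPRC has been linked to inclusion of that exon through slowed RNA polymerase. In vertebrate loops the direction of the motif matters, so the strand of each site is given here relative to the gene.

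The motif was learnt from the peaks themselves, from 5000 strong peaks on odd-numbered autosomes, none of them a member. The sequences below show how it sits in coding exons. Each is printed on the coding strand from the first base of a codon, capitals mark the 19 bp window with the best motif score in the peak, and coordinates are mm9. The most frequent bases of the learnt motif, on its G-rich strand, are shown first for comparison. Acpp, Capn7 and Dst have the motif on the coding strand, with the first base of the window at codon position 1, 2 and 3 in that order of genes. Kif27 and Zfp219 have it on the other strand, with the first base of the window at position 1 and 3 in that order. Zfp219 and Capn7 were taken by rule, and the rest were chosen after their values were seen.
Learnt motif: GGCCACCAGAGGGCGCTAG
Acpp, chr9:104209264-104209318 (minus strand), coding strand, 21.3 bits: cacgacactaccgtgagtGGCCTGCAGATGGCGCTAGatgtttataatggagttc
Capn7, chr14:32178703-32178758 (plus strand), coding strand, 18.1 bits: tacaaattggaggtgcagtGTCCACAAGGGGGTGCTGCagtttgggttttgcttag
Dst, chr1:34275329-34275385 (plus strand), coding strand, 24.8 bits: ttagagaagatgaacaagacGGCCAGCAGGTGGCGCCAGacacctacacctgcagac
Kif27, chr13:58389378-58389432 (minus strand), other strand, 20.7 bits: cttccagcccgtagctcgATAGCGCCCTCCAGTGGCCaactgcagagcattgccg
Zfp219, chr14:52628651-52628707 (minus strand), other strand, 19.8 bits: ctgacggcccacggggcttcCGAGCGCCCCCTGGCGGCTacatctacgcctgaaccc
Sox8, chr17:25704899-25704955 (minus strand), other strand, 16.7 bits: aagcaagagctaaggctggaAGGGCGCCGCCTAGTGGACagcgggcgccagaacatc
Eif2d, chr1:133052212-133052266 (plus strand), other strand, 23.0 bits: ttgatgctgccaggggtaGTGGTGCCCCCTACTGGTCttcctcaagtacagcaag
Ptprc, chr1:140016660-140016714 (minus strand), other strand, 13.7 bits: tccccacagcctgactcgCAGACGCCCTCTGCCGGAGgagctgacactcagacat

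A window was called a motif at 14.4 bits, the score that 1% of windows in sequence flanking the peaks reach. None of the printed stretches holds a stop codon in frame, which follows from reading annotated coding sequence in its own frame. Against the most frequent bases on the G-rich strand, the Acpp and Kif27 windows matched at 16 of 19 positions and the Dst and Zfp219 windows at 15. Sox8, Eif2d and Ptprc matched at 12.

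Peaks in coding exons made up 1.75% of autosomal pooled peaks, while coding sequence of this class made up 1.17% of autosomal sequence, a ratio of 1.49. The ratio was 1.72 for other exon sequence, 1.14 for introns, 0.831 for sequence between genes and 2.51 for promoters, taken as 1000 bp either side of a start. The list of replicate 1 had 584 such peaks and that of replicate 2 had 611, which is 1.64% and 1.70% of the autosomal peaks of each list (1.67 ± 0.0400%, SD, n = 2). The density of members per Mb of coding sequence ran from 15.7 on chromosome 16 to 34.5 on chromosome 18. Of the 27 members on chromosome 18, 13 were clustered protocadherin peaks, and without them the density there was 17.9 and the highest was 31.6, on chromosome 19.

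Placed by the midpoint, coding-exon peaks were of somewhat lower signal than peaks in introns. The signal value is the enrichment measure that the deposited lists give per peak, on a scale that is not stated in the sources used here. The median was 10.97 in coding exons, with quartiles of 7.03 and 16.2, against 12.1 in introns, 12.2 between genes and 14.35 in other exon sequence. Promoter peaks were close to the members, with a median of 11.25. Divided by the median of the same list, the coding-exon median was 0.887 in replicate 1 and 0.959 in replicate 2 (0.923 ± 0.0506, SD, n = 2), against 0.986 and 1.00 for intronic peaks (0.993 ± 0.00986). For promoter peaks these were 0.925 and 0.939, which lie between the 2 coding values. Both values of the coding class lay below both of the intronic class. Peaks were also placed by their best motif in place of the midpoint, which drops every peak without a motif. The relative median was then 1.05 for 355 peaks with the motif in a coding exon and 1.06 for 11975 with it in an intron. Both were still divided by the median of the whole list, and the coding class was close to the intronic one. How much of the shift came from the dropped peaks was not tested. The strongest member had 32.5, against 41.9 for the strongest autosomal peak, and 14 members were among the 1000 strongest peaks, where their share was 1.40%.

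**Figure D1:**
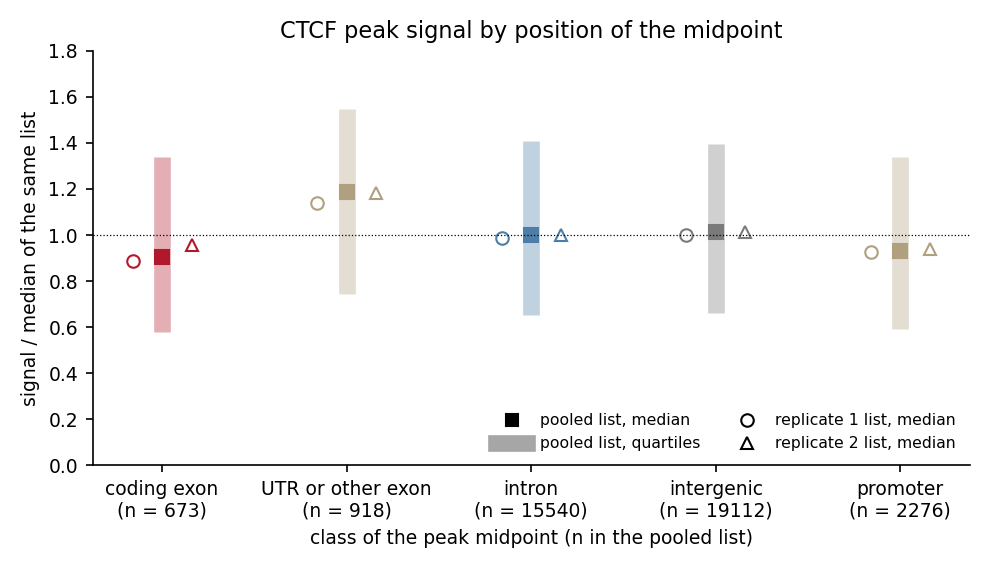
Signal of CTCF peaks divided by the median of the same list (vertical axis), for 5 classes of the peak midpoint; squares and bars are the median and quartiles of the pooled list, open circles and triangles the medians of the replicate 1 and replicate 2 lists. Coding-exon peaks sat at 0.907 in the pooled list and at 0.887 and 0.959 in the replicate lists, below 1.00 for intronic peaks and 1.19 for other exon sequence. Promoter peaks sat at 0.930 in the pooled list, near the coding-exon peaks.

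Peaks were also read just inside and just outside the borders of the rule. The 57 peaks with a midpoint in coding sequence 501 to 1000 bp from a start had a median signal of 11.7, and the 37 members at 1001 to 1500 bp had 9.14. The 84 members within 10 bp inside the edge of a coding interval had a median of 12.1, and the 64 peaks within 10 bp outside it had 11.8.

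A coding exon is usually much shorter than a peak. The exon holding the midpoint had a median length of 180 bp, and 570 of the 673 peaks were longer than it. The median member had 26.5% of its bases in coding sequence, and 38 peaks lay wholly in it. The median GC content over 201 bp around the midpoint was 56.2% in members, 52.2% in promoter peaks, 50.2% in peaks of other exon sequence and 46.8% in intronic peaks. The ratio of observed to expected CpG had a median of 0.372 in members, 0.414 in promoter peaks, 0.222 in peaks of other exon sequence and 0.186 in intronic peaks. The nearest other peak was a median of 8240 bp away from a member and 11580 bp away from an intronic peak. For peaks of other exon sequence it was 8702 bp and for promoter peaks 8902 bp, both near the value of the members.

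A motif near the midpoint was found in a smaller share of members than of peaks in introns or between genes. Within 50 bp of the midpoint, 237 members had one, which is 35.2% (95% exact interval 31.6 to 39.0%), against 55.8% of intronic peaks (55.0 to 56.6%), 55.2% of peaks between genes and 32.8% of promoter peaks (30.9 to 34.8%). On the even-numbered autosomes, none of whose peaks trained the motif, the shares were 98 of 278 members (35.3%, interval 29.6 to 41.2%) and 54.1% of all peaks. In sequence flanking the peaks, 4 of 1733 windows in coding exons reached the score (0.231%, interval 0.0629 to 0.590%), against 1.02% of those in introns. Anywhere in the peak, 371 members had a motif (55.1%, interval 51.3 to 58.9%), against 76.9% of intronic peaks (76.3 to 77.6%). Promoter peaks were near the members, with 57.5% (55.4 to 59.5%), and peaks of other exon sequence had 73.5%. All intervals cover counting error only, and peaks are not replicates.

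Where the best motif of the peak lay divided the members. In 242 members it lay wholly in coding sequence, a median of 20 bp from the midpoint, and their median signal was 12.1. In 99 the motif centre lay in an intron, a median of 116 bp from the midpoint, with a median signal of 14.9. In 13 the centre lay in a UTR or other exon sequence (median signal 19.4), and in 1 within a promoter. In 16 the centre lay in coding sequence but the window crossed its edge (13.3). Windows centred in an intron or other exon sequence could cross a coding edge too, so 16 is not the number of all that did. The remaining 302 members had no motif in the peak, and their median signal was 8.72. With each list divided by its median, the members found in that list with a motif in coding sequence had a median of 0.981 in replicate 1 and 0.979 in replicate 2. Members with a motif centred in an intron had 1.17 and 1.26, and members with none had 0.755 and 0.796, so the order was the same in both libraries.

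**Figure D2:**
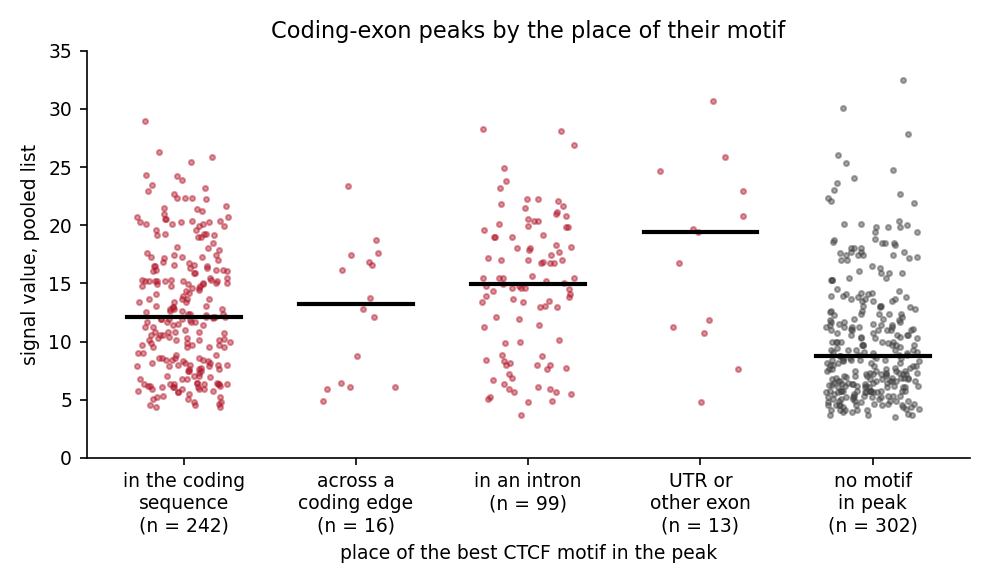
Signal value in the pooled list (vertical axis) of coding-exon peaks, grouped by the place of the best CTCF motif in the peak. Each point is a peak and each line a median. Apart from the group with the motif wholly in coding sequence, places are those of the motif centre, so windows can cross an edge. The 242 peaks with the motif in coding sequence had a median of 12.1 and the 302 without a motif 8.72, while single peaks without a motif reached 32.5; 1 peak with its motif in a promoter is not drawn.

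The presence of a motif near the midpoint went with higher signal in coding exons and in promoters. Members with a motif within 50 bp had a median signal of 12.7 and those without one 9.96. Promoter peaks had 12.52 with a motif within 50 bp and 10.69 without one, so this was not particular to coding exons. Intronic peaks had 11.96 with a motif within 50 bp and 12.24 without one, and peaks of other exon sequence had 14.35 and 14.21. Of the members without a motif anywhere in the peak, 70.5% (interval 65.0 to 75.6%) were found in both replicates, against 89.7% (85.1 to 93.2%) of those with a motif in coding sequence. Across members, Spearman's rho between the best motif score in the peak and the signal was 0.352, a description over 673 peaks of the same libraries. The rho between the width of the peak and the signal was 0.746, and a wider peak offers more windows to score. The median width was 928.5 bp for members with a motif in coding sequence and 1071 bp for those with a motif centred in an intron. It was 859.5 bp for those without a motif, and the part of width in the signal differences was not tested.

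The strongest coding-exon peaks were a mixture of these kinds. The strongest, in exon 18 of Vps13d (chr4:144745561-144746532), which encodes a lipid transfer protein of the VPS13 family, had a signal of 32.5, with 35.4 in replicate 1 and 49.1 in replicate 2, and ranked 62 among all autosomal peaks. Its best window scored 9.73 bits, so no motif was called in it, and the exon is 2214 bp long. Next came Adam15, a membrane-bound metalloprotease and disintegrin, with 30.7, and 37.2 and 26.6 in replicates 1 and 2. Its peak was 2092 bp wide and held a motif of 18.5 bits 552 bp from the midpoint, in other exon sequence. Tprgl, which encodes a protein of synaptic vesicles, had 30.1, with 38.5 in replicate 1 and 36.9 in replicate 2, and no motif in its peak.

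Motifs inside the coding sequence were called in 2 of the 10 strongest members. The peak in exon 32 of 5430411K18Rik had a signal of 29.0, with 34.1 in replicate 1 and 36.0 in replicate 2, and a motif of 22.4 bits 12 bp from its midpoint. Zfp219, which encodes a zinc-finger transcription factor, had 26.3 in its exon 3, with 30.4 in replicate 1 and 34.0 in replicate 2. The Zfp219 window printed above lay 124 bp from the midpoint.

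Of the other 5 among the 10 strongest, 3 had a motif in an intron. Spg11, whose product spatacsin acts in lysosome renewal, had 28.3, with 38.3 in replicate 1 and 31.7 in replicate 2. Tbc1d9b, a protein with a TBC domain that acts on Rab GTPases, had 28.1, with 32.2 and 38.6. Impdh1, an enzyme of guanine nucleotide synthesis, had 26.9, with 30.1 and 34.9. In these 3 the motif lay 194, 116 and 98 bp from the midpoint, with 16.1, 21.6 and 14.8 bits in that order. Ercc4, a subunit of the DNA repair nuclease that cuts beside lesions, had 27.9, with 32.0 and 37.4, and Pde3a, which breaks down cyclic nucleotides, had 26.0, with 34.3 and 32.3; neither had a motif in its peak. Of the 10 strongest, 4 thus had no motif in the peak.

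Below the 10 strongest, the sequences printed above belong to peaks across the range of signal. Sox8, a transcription factor of the SoxE group, had 25.9 in its last exon, with 30.6 in replicate 1 and 32.6 in replicate 2. Acpp, prostatic acid phosphatase, had 25.5, with 30.9 and 32.9. Kif27, a kinesin, had 24.3 in its last exon, with 31.4 and 25.7, and its motif was 1 bp from the midpoint. Eif2d, a translation initiation factor, had 23.5, with 28.0 and 28.6, and its motif was 3 bp from the midpoint. Dst, the cytoskeletal linker dystonin, had a peak of 19.3 in exon 36 and one of 15.2 in exon 53, where the printed window lies. In replicates 1 and 2 the exon 53 peak had 18.8 and 14.6. Capn7, a calpain protease with the median signal of 10.97, had 11.6 and 10.3.

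The replicates gave close values for most members, and those missing from a list were mostly weak. A peak of each replicate list overlapped 548 members, which is 81.4% (interval 78.3 to 84.3%), against 86.2% of all autosomal pooled peaks. Replicate 1 alone had 40, replicate 2 alone had 62, and 23 were in neither list. The median pooled signal was 5.77 for members in replicate 1 alone, 5.77 for those in replicate 2 alone and 4.64 for those in neither, against 12.7 for those in both. With the members ranked by signal in 5 parts of equal size, all of the 3 strongest parts were in both lists, against 112 of 135 in the next and 33 of 135 in the weakest.

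For the 548 members in both lists, the log2 ratio of relative signal, replicate 1 over replicate 2, had a median of -0.11 and an SD of 0.29, and Spearman's rho between the replicates was 0.913. The SD was 0.29 for intronic peaks too. A ratio beyond 1.5-fold was found in 29 members, which is 5.29% (interval 3.57 to 7.51%), against 5.16% of all autosomal peaks in both lists. A ratio beyond 2-fold was found in 2 members (0.365%, interval 0.0442 to 1.31%), against 0.187% of all autosomal peaks in both lists. Both were higher in replicate 2, as were 40 of the 62 such peaks over all classes.

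Single exons stood at the ends of this spread. Mbtps1, the site-1 protease of the Golgi, had 4.75 in replicate 1 and 10.8 in replicate 2, a log2 ratio of -1.19. Etl4 had 5.81 and 12 (log2 ratio -1.04), and Sult5a1, of the sulfotransferase family, had 5.02 and 10 (log2 ratio -0.99). In the other direction Yipf7, a membrane protein of the YIP1 family, had 13.5 in replicate 1 and 7.43 in replicate 2 (log2 ratio 0.86). Cenpf, a kinetochore protein, and Fbxw24, an F-box protein, each had 10.3 and 6.28 (log2 ratio 0.71). All 6 had a pooled signal below the median of the members.

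**Figure D3:**
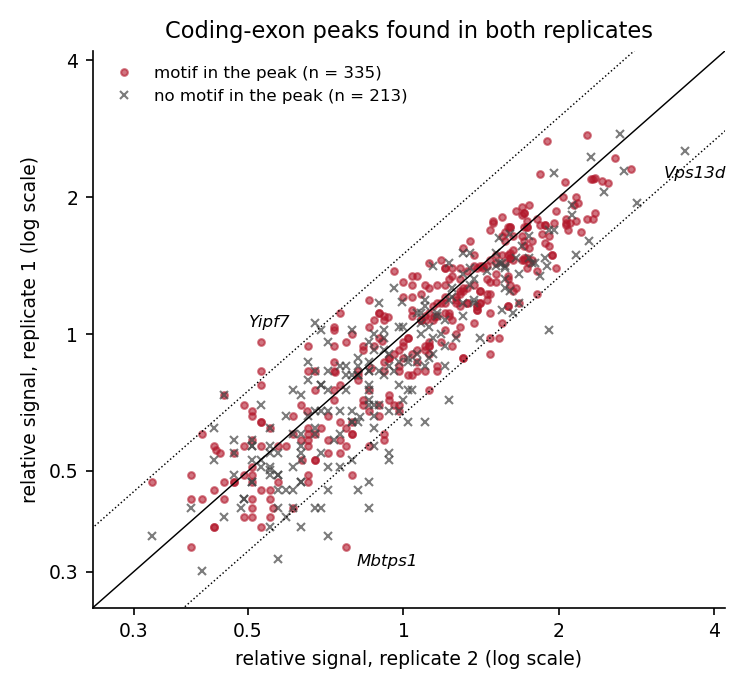
Relative signal in replicate 1 (vertical axis) against replicate 2 (horizontal axis), both on log scales, for the 548 coding-exon peaks found in both lists; circles have a motif in the peak, crosses do not, the solid line marks equality and the dotted lines 1.5-fold. Beyond 1.5-fold lay 29 peaks, with Mbtps1 below and Yipf7 above the lines, and Vps13d had the highest value in replicate 2.

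Seen from the motif, a larger share of sites in coding sequence than in introns lay in a peak, but not among sites whose sequence occurs once. Of 1323 motif sites in coding sequence, 403 lay in a pooled peak (30.5%, interval 27.99 to 33.02%), against 20.4% of 66043 intronic sites and 22.2% of sites between genes. In the replicate lists it was 28.2% and 29.3% of coding sites (28.7 ± 0.748%, SD, n = 2) and 18.7% and 18.9% of intronic sites (18.8 ± 0.159%). At 18 to 20 bits the shares were 61.2% of coding sites (interval 53.4 to 68.5%) and 21.3% of intronic sites (20.6 to 21.98%).

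The 19 bases of 82.5% of coding sites, but of 26.8% of intronic sites, occurred once in the autosomal sequence. Among sites that occurred once, 30.98% of coding sites (interval 28.25 to 33.8%) were in a peak, against 36.6% of intronic sites (35.9 to 37.3%) and 39.0% of sites between genes. At 18 to 20 bits these shares were 63.1% of coding (54.6 to 71.1%), 62.1% of intronic (60.3 to 63.9%) and 63.1% of intergenic sites. At 16 to 18 bits they were 31% of coding sites (26.0 to 36.3%) and 35.9% of intronic sites (34.7 to 37.2%). At 22 bits and over, 12 of 13 coding sites (92.3%) and 92.1% of intronic sites were in a peak. How the authors placed reads from repeated sequence is not given in the sources used here, and this split was chosen after the data were seen.

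**Figure D4:**
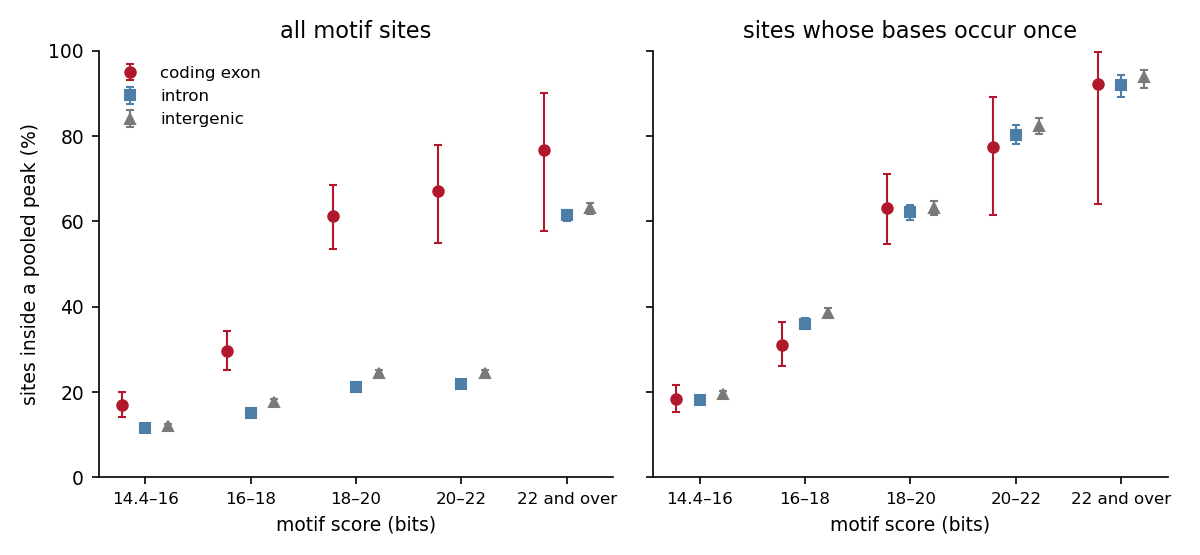
Share of motif sites inside a pooled peak (vertical axis, percent) by motif score in bits (horizontal axis), for coding exons, introns and sequence between genes; the left panel has all sites, the right panel sites whose 19 bases occur once, and bars are 95% exact intervals. At 18 to 20 bits coding sites stood at 61.2% against 21.3% for intronic sites on the left, and at 63.1% against 62.1% on the right.

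A CpG at positions 14 and 15 of the motif was more frequent in coding than in intronic sites, and it was looked at after the data were seen. It was present in 30.0% of coding sites (interval 27.6 to 32.6%) and 14.9% of intronic sites (14.7 to 15.2%). Of coding sites with it, 53.1% were in a peak (48.1 to 58.1%), against 20.7% of those without it (18.2 to 23.5%). Of intronic sites, 41.6% with it and 16.7% without it were in a peak. At 14.4 to 16 bits, 36.4% of coding sites with the CpG were in a peak (28.8 to 44.5%), against 11% without it (8.39 to 14.1%). At 16 to 18 bits these were 51.8% (42.2 to 61.3%) and 20.9% (16.4 to 26.1%). Among coding sites of 18 to 20 bits, 73.3% with the CpG and 51.6% without it were in a peak, with intervals of 61.9 to 82.9% and 41.1 to 62.0% that overlap.

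The number of motif sites differed between codon frames more than the share of them in a peak did. Of 1217 sites wholly in coding sequence, 568 had the motif on the coding strand and 649 on the other strand. None held a stop codon in frame, which the choice of annotated coding sequence fixes in advance. On the coding strand 270 sites had the first base at codon position 1, 206 at position 2 and 92 at position 3. On the other strand the counts were 233, 163 and 253. In a peak were 28.5% of sites on the coding strand (interval 24.8 to 32.4%) and 28.7% of those on the other strand (25.2 to 32.3%). Over the 6 frames the share ran from 22.8% (14.7 to 32.7%), for the rare frame that Dst has, to 32.4% (26.7 to 38.6%), for the frame that Zfp219 and Sox8 have. Of the 202 members with a motif within 50 bp that lay wholly in coding sequence, 48.0% had it on the coding strand.

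**Figure D5:**
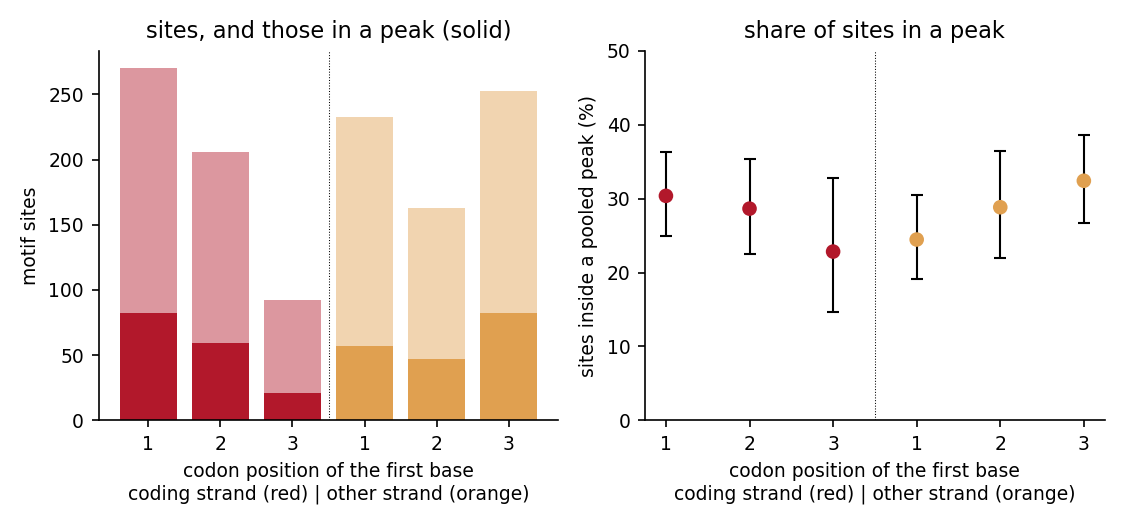
Motif sites wholly in coding sequence by strand and by codon position of the first base of the window; the left panel gives the number of sites (pale) and those in a pooled peak (solid), the right panel the share in a peak with 95% exact intervals. The number of sites ran from 92 to 270, while the share in a peak ran from 22.8% to 32.4% with overlapping intervals.

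Members were spread over exons much as coding sequence is, apart from a larger share in last coding exons. Members were classed on the longest coding transcript holding the midpoint, and coding bases on the longest coding transcript of each gene. Some members thus count through shorter transcripts that the shares of bases leave out, and the part of this in the last-exon share was not tested. Internal coding exons held 489 members, which is 72.7% (interval 69.1 to 76.0%) against 75.3% of coding bases. The last coding exon held 138 members, 20.5% (17.5 to 23.8%) against 16.7% of coding bases, or 30.0 members per Mb of it and 23.6 per Mb of internal exons. First coding exons and single-exon coding sequences held 23 members each, both 3.42% against 4.01% and 4.02% of coding bases. By length, exons of up to 100 bp held 24.9 members per Mb of coding sequence and exons over 500 bp held 22.3.

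Alternative use of the exon was read from the annotation alone. Only transcripts of type protein_coding of the same gene that span the midpoint were counted. In 323 members the midpoint was in the coding sequence of every such transcript, in 85 it was not, and 265 had at most 1 such transcript. A transcript with the midpoint in a UTR counts as lacking it, so this is not a count of exon inclusion. The median signal was 11.2 where the midpoint was coding in every transcript and 11.4 where it was not. A motif within 50 bp was present in 35.6% (interval 30.4 to 41.1%) and 41.2% (30.6 to 52.4%) of these. The RNA of the cells was not measured here.

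Ptprc, which encodes the leukocyte surface phosphatase CD45, had a member at exon 5, the exon of the splicing example. The peak (chr1:140016288-140017075) had a signal of 5.63 in the pooled list, 5.54 in replicate 1 and 6.28 in replicate 2, and ranked 593 among the 673 members. The exon is 147 bp long, and the midpoint was in the coding sequence of 3 of 5 protein_coding transcripts that span it. The best window, printed above, lay 5 bp from the midpoint and at 13.7 bits was just below the score for a motif. An intronic peak elsewhere in the gene (chr1:139981989-139983007) had a signal of 12.1.

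Keratins, the filament proteins of epithelia, held a member in 6 of 51 genes (11.8%, interval 4.44 to 23.9%), against 3.45% of all 18634 genes with coding sequence in the class. Krt81 had 11.5 in its last exon, with 10.6 in replicate 1 and 14.3 in replicate 2. Krt75 had 10.3, with 11.3 and 11.4. Keratin genes have near-identical copies, and whether reads were shared between them is not given in the sources used here, so the values of single genes are uncertain.

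Clustered protocadherins, neuronal adhesion proteins whose genes stand in tandem arrays of large exons, held members in 12 of 24 genes (50%, interval 29.1 to 70.9%), 13 peaks in all. CTCF at promoters of this locus is a known part of how single protocadherin genes are chosen, but these peaks lay more than 1000 bp downstream. Pcdhb10 had the strongest, with 17.4, and 20.1 in replicate 1 and 17.1 in replicate 2. Pcdhb18 had 13.6, with 14.5 and 14, and Pcdhb14 had 13.1, with 15.6 and 15.1. The midpoint lay 2018 to 2202 bp into the exon in the 10 Pcdhb genes, whose exons are 2337 to 2403 bp long. No window in any of the 13 peaks reached the score for a motif, and the highest was 13.3 bits, in a peak annotated as Pcdhgc5. Another peak with this name lay in a different large exon, so the count of genes rests on the annotation. Pcdhb genes are near-identical over long stretches, so these values too are uncertain.

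The lists of motor and cadherin genes follow. Of 98 dynein, kinesin and myosin genes, 15 held a member (15.3%, interval 8.83 to 24.0%), 18 peaks in all, or 35.6 per Mb of coding sequence against 24.4 over all genes. Myo10, a myosin of filopodia, had 21.7 in exon 36, with 25.6 in replicate 1 and 23.7 in replicate 2. Of 18 non-clustered protocadherin, Fat and Celsr genes 5 held a member (27.8%, interval 9.69 to 53.5%). Celsr1, a cadherin of planar cell polarity, was the 1 gene with 3 members. Its peaks in exon 1 had 17.7 and 4.36, and that in exon 28 had 7.60. The strongest was 19.3 in replicate 1 and 20.3 in replicate 2, and the weakest was called in replicate 1 alone, with 4.49.

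Other lists of surface and matrix genes were small. Of 27 plexin and semaphorin genes 5 held a member (18.5%, interval 6.30 to 38.1%). Sema6b, an axon guidance protein, had 23.8, with 25.9 in replicate 1 and 32.9 in replicate 2. Of 22 receptor tyrosine phosphatase genes 4 did (18.2%, interval 5.19 to 40.3%), and Ptprb, the phosphatase of vascular endothelium, had 18.4, with 20.6 and 22.6. Of 11 laminin genes 2 did (18.2%, interval 2.28 to 51.8%), with 16.5 in Lama4. Of 41 collagen genes 2 did (4.88%, interval 0.596 to 16.5%), with 19.8 in Col1a1, the main collagen of bone. None of 31 integrin genes held one (upper bound 11.2%). Of 15 Notch pathway genes 2 did: Numbl, an adaptor that binds Notch, had 18.99, with 23.8 and 20.6, and the receptor gene Notch2 had 10.8, with 13.5 and 10.8 and a motif of 18.5 bits on the coding strand. Per Mb of coding sequence, laminins had 29.0 members and collagens 11.3, against 24.4 over all genes. Plexins and semaphorins had 58.95, the phosphatases 49.6 and the Notch pathway 39.7.

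Channel and transporter lists had shares of genes with a member whose intervals overlapped. Of 89 potassium channel genes 6 held a member (6.74%, interval 2.51 to 14.1%), or 58.3 members per Mb of coding sequence. Kcnj10, an inward rectifier of glia, had 17.4, with 19.8 in replicate 1 and 20.0 in replicate 2 and a motif of 21.0 bits in its last exon. Of 19 voltage-gated calcium and sodium channel genes 4 did (21.1%, interval 6.05 to 45.6%), or 36.1 members per Mb. The calcium channel gene Cacna1a had 18.7, with 20.1 and 21.7. Of 341 solute carrier genes 12 did (3.52%, interval 1.83 to 6.07%), or 24.3 members per Mb, near the value over all genes. Of 48 ABC transporter genes 1 did (2.08%, interval 0.0527 to 11.1%), Abca2, with 6.05, or 5.28 members per Mb from this 1 peak. Of 19 plakin, spectrin and ankyrin genes 3 did (15.8%, interval 3.38 to 39.6%), or 27 members per Mb, with Dst first.

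Lists of gene regulators come next. Of 420 genes in a list of zinc-finger genes taken by symbol, 5 held a member (1.19%, interval 0.388 to 2.76%). The list had 6.89 members per Mb of coding sequence, against 24.4 over all genes. It does not hold every C2H2 zinc-finger gene that has a member, so these values are for the list alone. Besides Zfp219, Zfp523 had 20.4, with 21.9 in replicate 1 and 26.9 in replicate 2. Of 41 histone lysine methyltransferase and demethylase genes 4 did (9.76%, interval 2.72 to 23.1%), or 24.8 members per Mb, near the value over all genes. Mll1, which methylates histone H3 at developmental genes, had 17.2, with 17.2 in replicate 1 and 20.6 in replicate 2. Of 38 Hox genes, which pattern the body axis, 1 did: Hoxd10 had 17.3 in its last exon, with 17.7 and 21.99, and no motif in the peak. None of 222 olfactory receptor genes held a member (upper bound 1.65%), and none of 5 replication-dependent histone genes did. The distance from starts leaves these lists only 0.0662 and 0.000605 Mb of coding sequence, so little can be read from either count. In all, 643 genes held a member, 28 of them with 2, and lists differ in length and number of exons, whose part in these shares was not tested.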

How the data were processed

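The mm9 peak lists of each library and of both together were used. Per the file headers they are broad-peak lists with a signal value per peak, made by the authors and deposited without its scale. A deposited −log10 p-value stands beside it and is never below 5.00. No source used here names the aligner, the peak caller or the way replicates were pooled. Read counts are not part of these lists, which leaves the depth unknown. The mm10 lists were not used.

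Autosomal peaks (38519 pooled, 35612 in replicate 1, 36015 in replicate 2) were placed by their midpoint on GENCODE vM1 and NCBIM37 sequence, counting starts of transcripts of type protein_coding. A 19 bp motif was learnt by expectation maximisation, without a given matrix, and called at 14.4 bits (73315 flanking windows). On simulated sequences with a planted motif it recovered the planted share and base frequencies. Replicate peaks were matched by at least 1 shared base, and relative signal is the signal over the median of the same list. Intervals are exact Clopper-Pearson at 95%. Exon numbers refer to the longest coding transcript holding the midpoint.

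No test between groups was possible with 1 group of 2 libraries. Named were the 10 strongest members, the 3 largest replicate ratios in each direction, genes with 3 members, up to 2 genes per list, Ptprc, and other members chosen after their values were seen. Members and lists were chosen with earlier results of these data known. Alternatives covered the distance from starts, transcript types, placement by motif, signal, motif score and window, replicate overlap and each replicate list alone. Python 3.11.15, numpy 2.4.6, scipy 1.17.1, pandas 2.3.3 and numba 0.67.0 were used.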

Additional observations from a re-analysis of the deposited data

How the results depend on the processing

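No paired analysis was possible because the 2 libraries form one group. Without one replicate, that is from the list of the other alone, there were 584 to 611 members, with a median relative signal of 0.887 to 0.959, a motif within 50 bp in 38.0 to 38.5%, a motif on the coding strand in 45.2 to 45.9%, 28.2 to 29.3% of coding motif sites in a peak and 19.6 to 19.9% of members in a last exon. Placing a peak by its best motif, which drops peaks without a motif, gave 355 members with a relative signal of 1.05. The midpoint gave 0.907, both against the median of the whole list. Of these 355, 67.9% had a motif within 50 bp, 91.5% were in both replicates and 23.7% in a last exon. Keeping only peaks above the median signal gave 289 members, with a relative signal of 1.41, a motif within 50 bp in 42.9%, 44.4% on the coding strand, 16.5% of coding sites in a peak, 100% in both replicates, a replicate SD of 0.233 and 20.1% in a last exon. With the motif score set at 0.1% of flanking windows, 5.20% of members had a motif within 50 bp, 46.4% of these on the coding strand, and 74.2% of coding sites were in a peak; at the 5% score these were 65.1%, 44.2% and 6.22%. A motif was present within 100 bp in 44.7% of members, 47.5% of them on the coding strand, and anywhere in the peak in 55.1%. With 500 bp from starts, a motif was present in 35.8% and a last exon in 19.6%; with 2000 bp these were 35.9% and 19.9%, with 47.1% on the coding strand. With coding intervals of protein_coding transcripts alone, 20.3% were in a last exon. Counting every transcript's start, an alternative chosen after seeing the data, gave 596 members, 36.1% with a motif, 47.3% on the coding strand and 21.6% in a last exon. Sites that occur once, also chosen after, gave 30.98% in a peak. Under a replicate overlap of 50% no value moved beyond its spread. The cause of these shifts was not tested, beyond what each choice removes by construction. Depth is unknown, so peaks missed in one replicate cannot be told from weak ones.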
